A study of Mus musculus with 4 samples.

Results

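The differences between 2 induced pluripotent stem (iPS) cell lines and an embryonic stem (ES) cell line of the mouse were described across genes. The members are the iPS lines 178B5 and 492B4 and the ES line v6.5, 3 of the 4 samples of the series. The remaining sample, mouse embryonic fibroblasts (MEF), serves here only as context. iPS cells are made from body cells by forced expression of reprogramming factors, and ES cells are taken from the early embryo. A gene was a shared difference when both iPS lines lay at least 1 log2 from ES in the same direction, and 408 of 19938 genes met this rule.

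Each line was measured on a single array, so the ES line has no replicate and each iPS line is a replicate of its kind only. Both iPS lines and the MEF came from a background mixing DBA/2, C57BL/6 and 129S4, whereas ES v6.5 is an F1 line of 129 with C57BL/6. Strain and cell origin can therefore not be told apart in any difference from ES below. The 3 pluripotent lines were grown in ES cell medium with serum on SNL feeder cells stopped from dividing with mitomycin C, and MEF were grown in serum medium. The labels name no factors, vectors or passage for the iPS lines, and a line is a single isolate. The ES array enters the difference of both iPS lines, so an error on that array would appear in both.

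Mouse pluripotent cells are held in their state by transcription factors such as Pou5f1, Nanog and Sox2, and reprogramming must switch these on and silence the programme of the starting cell. Pluripotent cultures are also known for low levels of some germ cell genes and for cells that leave the state towards primitive endoderm, an extra-embryonic lining tissue. Cultures on feeders carry some feeder RNA unless feeders are removed.

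The deposited values are on a log scale, taken as log2, and each probe set is centred on the median of the 4 arrays, so they give differences between arrays and no levels. Pou5f1 stood at -0.09 in iPS 178B5, 0.09 in iPS 492B4, 0.15 in ES and -6.25 in MEF. Nanog was 0.10 log2 below ES in iPS 178B5 and 0.11 log2 below it in iPS 492B4, and Sox2 was 0.12 and 0.14 log2 above it. Of 44 measured core pluripotency genes 1 was a shared difference, the sialomucin gene Podxl, and of 27 naive state genes and 40 cell cycle genes 0 were. Over all genes the share was 2.05%, so these counts were near the background. The labels of the 3 pluripotent lines and of MEF matched the values of Pou5f1, Nanog and Sox2.

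Of the 408 genes, 191 were higher in both iPS lines than in ES (0.958% of all genes) and 217 were lower (1.09% of all genes). In iPS 178B5 alone 285 genes were at least 1 log2 above ES (1.43%) and 263 below it (1.32%). In iPS 492B4 these counts were 505 (2.53%) and 439 (2.2%). No gene was past 1 log2 in opposite directions in the 2 lines. The lines differed from each other by at least 1 log2 for 8 of the 191 higher genes and 6 of the 217 lower ones. The median gap between the lines was 0.27 log2 for the higher genes and 0.23 log2 for the lower ones. These values chose the genes and are given as a description.

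**Figure D1:**
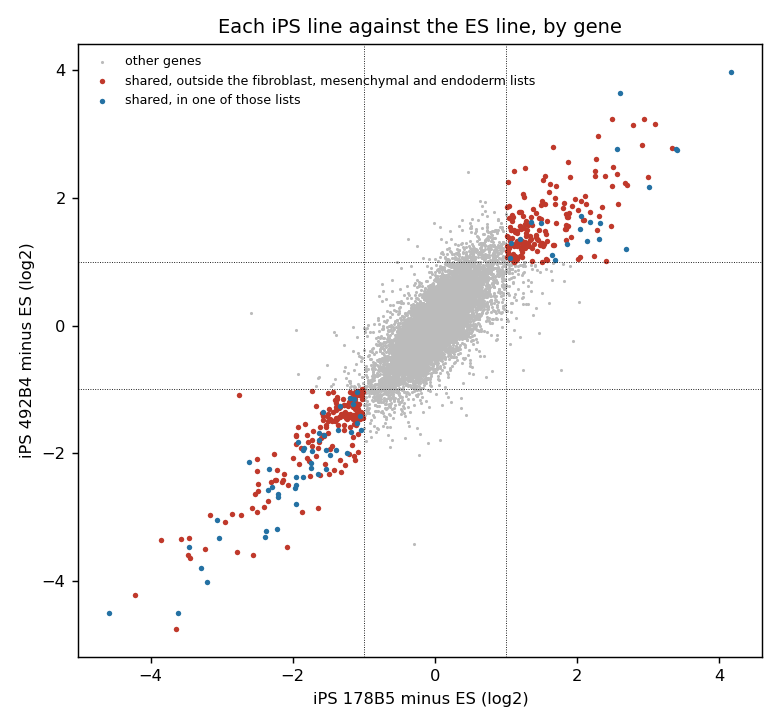
Difference from ES in iPS 178B5 (x axis, log2) against that in iPS 492B4 (y axis, log2), a point per gene over 19938 genes; dotted lines mark 1 log2. The 408 shared differences fill the upper right and lower left corners, and no gene lies in the other corners. Both axes subtract the same ES array, which by itself spreads points along the diagonal.

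A test of iPS against ES was possible only with the spread between the iPS lines, which gave 1 residual degree of freedom, and with the assumption that ES varies like them. In limma's test 0 of 19938 genes passed an adjusted p of 0.05 with a difference of at least 1 log2 (0% of all genes), and 3079 had an unadjusted p under 0.05. The lowest adjusted p was 0.0529. With each array's median set equal 44 genes were called, 15 higher and 29 lower. With the arrays centred on reference genes 276 were called, 112 higher and 164 lower. All 44 and all 276 were among the 408 shared differences. Those were chosen by the same values, so the overlap is no separate evidence. The p-values rest on the spread between these lines alone, since no repeat cultures are described.

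The fibroblast and endoderm genes among the 408 come first as context. Of 59 measured fibroblast matrix genes 30 were lower in both iPS lines, and of 70 mesenchymal genes 16 were, beside 1.09% of all genes. With iPS 492B4 alone the mesenchymal count was 25, beside 2.2% of all genes. With iPS 178B5 alone it was 16, beside 1.32%. The fibroblast matrix list averaged 3.10 in MEF, 0.55 in ES, -0.57 in iPS 178B5 and -0.86 in iPS 492B4. Mmp3, a matrix protease, was 4.58 and 4.50 log2 below ES, and Tnc, a matrix glycoprotein, was 3.62 and 4.51 log2 below it. Of 70 endoderm genes 21 were higher in both iPS lines, beside 0.958% of all genes, and 1, the apolipoprotein gene Apoa2, was lower. The proteoglycan gene Srgn was 4.17 and 3.98 log2 above ES, and the laminin gene Lama1 was 3.40 and 2.76 log2 above it. The endoderm list averaged 0.44 in iPS 178B5, 0.16 in iPS 492B4, -0.43 in ES and -0.34 in MEF. Outside these lists lay 170 of the 191 higher and 170 of the 217 lower genes. Whether the ES array held more RNA of feeder or differentiating cells, or the iPS arrays more RNA of endoderm-like cells, was not tested. In bulk samples fewer cells of a type and less RNA per cell cannot be told apart.

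**Figure D2:**
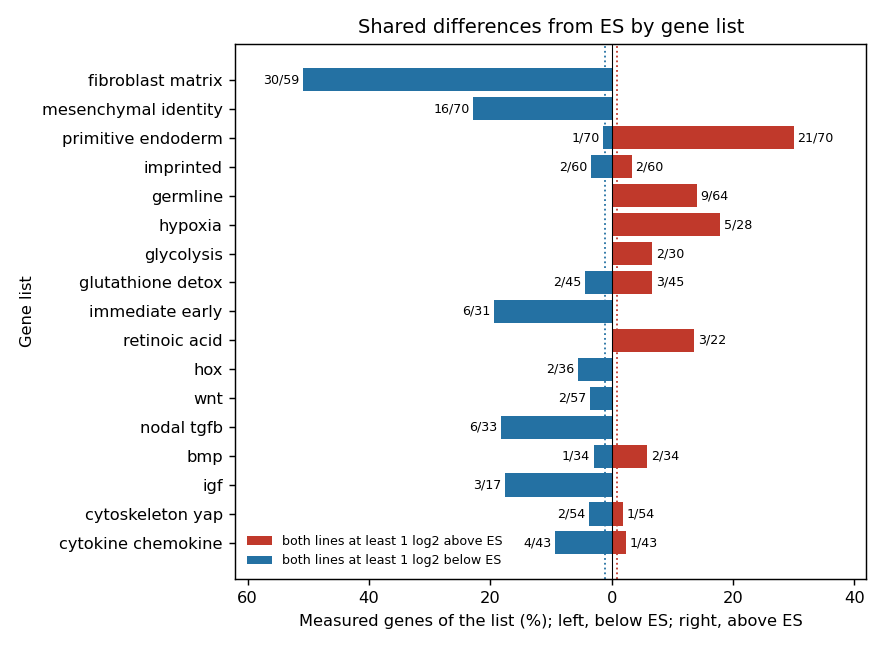
Share of the measured genes of each list (x axis, %) with both iPS lines at least 1 log2 above ES (right) or below ES (left), for lists with 2 or more genes in a direction; figures beside bars give genes over measured genes. Dotted lines mark the shares over all genes, 0.958% above and 1.09% below. Fibroblast matrix genes stand at 30 of 59 below, endoderm genes at 21 of 70 above, hypoxia genes at 5 of 28 above and immediate early genes at 6 of 31 below.

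Genes of the germ line were among the highest outside those lists, with Nxf7, Nxf3, Usp26 and Meioc in the first 15. Of 64 measured germ line genes 9 were higher in both iPS lines and 0 lower, beside 0.958% of all genes higher. This list, like the others, was chosen with earlier results of these data known. The list's median was 0.25 log2 in iPS 178B5 and 0.42 log2 in iPS 492B4, against -0.04 and -0.07 log2 over all genes. In iPS 492B4 alone 15 of them were at least 1 log2 above ES, beside 2.53% of all genes. In iPS 178B5 alone 10 were, beside 1.43%. The germ line list averaged -1.31 in MEF, the lowest of the arrays.

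Nxf7, a member of the nuclear RNA export factor family on the X chromosome, stood at 1.55 in iPS 178B5, 1.62 in iPS 492B4, -1.55 in ES and -3.12 in MEF. Both iPS arrays were high and ES lay between them and MEF. The differences from ES were 3.10 and 3.17 log2. Its relative Nxf3 stood at 1.95, 1.39, -1.39 and -1.68 on the same arrays in that order, so ES was near MEF. Nxf2, another member of the family, was 0.48 and 0.52 log2 above ES, under the minimum. Usp26, an X-linked deubiquitinase of the testis, stood at 1.39 in iPS 178B5, 1.76 in iPS 492B4, -1.39 in ES and -4.10 in MEF. ES was above MEF by 1.57 log2 for Nxf7, 2.71 log2 for Usp26 and 0.28 log2 for Nxf3.

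Meioc, needed for the meiotic prophase, exceeded ES by 2.25 log2 in line 178B5 and 2.34 log2 in line 492B4. Smc1b, a cohesin subunit of meiotic chromosomes, was 1.69 and 2.00 log2 above ES. Mael and Tdrd5, which act in the piRNA pathway that silences transposons in germ cells, were 1.71 and 1.60 and 1.56 and 1.44 log2 above ES. Sohlh2, a transcription factor of early germ cells, was 1.32 and 1.25 log2 above it. The transketolase-like gene Tktl1 was 1.26 and 2.01 log2 above it. MEF was below ES for all 9 of these genes, by 0.28 log2 for Nxf3 and by 4.11 log2 for Mael.

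Some members known from meiosis or the testis were not on the germ line list and are named here after their values were seen. Ybx2, an RNA-binding protein of germ cells, was 1.42 and 1.76 log2 above ES. Gpat2, a testis acyltransferase, was 1.69 and 1.91 log2 above it. Meiob and Cntd1, which act in meiotic recombination, differed between the lines: Meiob exceeded ES by 1.12 log2 in line 178B5 and by 2.43 log2 in line 492B4, and Cntd1 by 1.28 and 2.47 log2.

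The promoters of the germ line members were searched for GCGGGAA, a site of the E2F type, because members that differ together can be compared by sequence. Of the 9 genes 8 had a promoter entry in RefSeq (GRCm38.p6), and 3 of the 8 held GCGGGAA or its reverse complement TTCCCGC in the 250 bases before any of their starts. The share was 6.11% over 15563 measured genes with an entry and 17.6% over the 51 such genes of the germ line list. The motif was picked after the members were known. The stretches around the match follow, each 5′ to 3′ on the gene's strand, with the match in capitals; they lie at chr11:102665335-102665394 (plus strand), chr15:85131971-85132030 (minus strand) and chr1:156303539-156303598 (minus strand).
Meioc: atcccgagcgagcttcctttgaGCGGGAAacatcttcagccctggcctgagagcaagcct
Smc1b: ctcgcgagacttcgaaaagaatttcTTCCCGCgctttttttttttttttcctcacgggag
Tdrd5: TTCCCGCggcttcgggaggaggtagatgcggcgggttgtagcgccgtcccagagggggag
The match began 228 bases before the start in Meioc, 48 bases in Smc1b and 250 bases in Tdrd5. A match is only a string of letters and shows no binding.

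The other genes among the 15 highest had various roles. Tns4, a tensin of cell-matrix contacts, stood at 1.47 in iPS 178B5, 1.77 in iPS 492B4, -1.47 in ES and -2.06 in MEF, 2.94 and 3.24 log2 above ES. Slc34a2, a sodium-phosphate cotransporter, was 2.50 and 2.48 log2 above ES, and Pla2g12b, a secreted phospholipase family member, 2.56 and 2.37 log2. MEF was above ES by 0.10 log2 for Slc34a2 and 0.01 log2 for Pla2g12b, so the iPS arrays alone were high. The uncharacterised RNA gene 4933427D06Rik (2.30 and 2.97 log2), the kallikrein gene Klk1b22 (2.27 and 2.61 log2) and the glucuronosyltransferase gene Ugt2b34 (2.25 and 2.42 log2) also had ES nearer to MEF than to either iPS line.

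A second kind of pattern had ES as the lowest array by far. Ctsh, a lysosomal cysteine protease, stood at 0.04 in iPS 178B5, -0.04 in iPS 492B4, -2.87 in ES and 0.32 in MEF. Ankrd1, a muscle ankyrin-repeat protein and a known target of YAP, stood at -0.08, 0.65, -2.58 and 0.08 in the same order. Glipr1 stood at 0.34, -0.34, -2.66 and 0.62. In these genes the iPS lines and MEF were alike within 1 log2 and ES was low. Enpep, an aminopeptidase that acts on angiotensin II, was intermediate, with MEF 1.22 log2 above ES and the iPS lines 2.68 and 2.23 log2 above it. Over the 170 higher genes outside the lists ES was the lowest of the 4 arrays for 89 and MEF for 81. The rule puts both iPS lines above ES, so only ES or MEF could be lowest. MEF was at least 1 log2 above ES for 51, within 1 log2 for 96 and at least 1 log2 below for 23. Both comparisons use the ES array, and the same split over all genes was not counted.

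**Figure D3:**
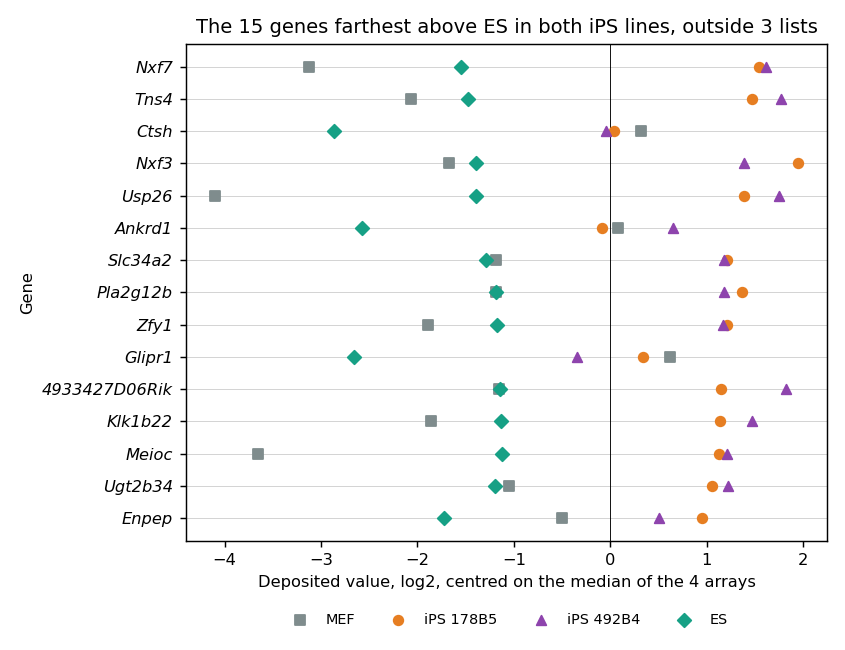
Deposited values (x axis, log2, centred on the median of the 4 arrays) of the 15 genes outside the 3 context lists with the largest shared difference above ES (y axis), a point per array. In Nxf7 and Usp26 the iPS lines lie right, ES between and MEF left; in Ctsh, Ankrd1 and Glipr1 only ES lies left, at -2.87, -2.58 and -2.66.

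Sex-linked genes were checked because lines can differ in sex. Zfy1, a zinc finger gene of the Y chromosome, stood at 1.22 in iPS 178B5, 1.17 in iPS 492B4, -1.17 in ES and -1.89 in MEF. Its paralogue Zfy2, which has a near-identical sequence and may share signal, was only 0.33 and 0.23 log2 above ES. The Y genes Eif2s3y (0.55 and 0.97 log2), Uty (0.24 and 0.42 log2) and Kdm5d (0.83 and 0.35 log2) stayed under the minimum. Uba1y (0.54 and 1.09 log2) passed it in iPS 492B4 only. Sry was 0.24 and 0.03 log2 above ES, and Usp9y was below it (-0.13 and -0.10 log2). Xist, the RNA that silences an X chromosome in female cells, stood at -0.10 in iPS 178B5, 0.00 in iPS 492B4, 1.42 in ES and 0.00 in MEF. The ES array alone was high for Xist. Of 13 measured sex-linked genes 2, Zfy1 and Xist, were shared differences, beside 2.05% of all genes.

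Genes of the hypoxia list, which cells raise when oxygen is scarce, were higher for 5 of 28 measured members and lower for 0, beside 0.958% of all genes higher. In iPS 492B4 alone 9 were at least 1 log2 above ES, beside 2.53% of all genes. In iPS 178B5 alone 6 were, beside 1.43%. P4ha2 and P4ha1, the catalytic subunits of the prolyl hydroxylase that modifies collagen, were 2.56 and 2.77 and 1.58 and 1.64 log2 above ES. Plod2, a lysyl hydroxylase of collagen, was 1.58 and 1.33 log2 above it. P4ha2 is also on the endoderm list. P3h2, another collagen hydroxylase, which is on no list and was chosen after its values were seen, was 1.85 and 1.58 log2 above ES. Other enzymes that act on collagen were below ES, all on the fibroblast matrix list: the crosslinking enzyme genes Lox (-3.04 and -3.34 log2), Loxl1 (-1.72 and -1.96 log2) and Loxl3 (-2.20 and -2.64 log2). Pcolce, an enhancer of procollagen processing, was also below it (-1.04 and -1.64 log2). These 4 genes were chosen after their values were seen. The collagen I gene Col1a1 was 1.64 and 2.33 log2 below ES. The basement membrane collagen genes Col4a1 (2.18 and 1.63 log2) and Col4a2 (1.86 and 1.28 log2) were above it.

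The remaining hypoxia members were Car12, a carbonic anhydrase of the cell surface (1.86 and 1.71 log2 above ES), and Pfkfb3, which makes the activator of phosphofructokinase (1.07 and 1.26 log2). On the glycolysis list 2 of 30 genes were higher, Ldhb (1.18 and 1.29 log2) and Tktl1, beside 0.958% of all genes. With a minimum of 1.5 log2 the count was 0. In iPS 492B4 alone 7 were higher, beside 2.53% of all genes, and in iPS 178B5 alone 2 were, beside 1.43%. Detoxification genes went both ways, with 3 of 45 higher, beside 0.958% of all genes, and 2 lower, beside 1.09%. With iPS 492B4 alone 5 were lower, beside 2.2% of all genes, and with iPS 178B5 alone 2 were, beside 1.32%. The glutathione peroxidase gene Gpx3 was 1.97 and 1.99 log2 above ES, and the glutathione transferase genes Gstm6 (1.56 and 2.34 log2) and Gstm5 (1.55 and 1.48 log2) were above it. The quinone reductase gene Nqo1 (-1.25 and -1.45 log2) and the cytochrome gene Cyp1b1 (-1.47 and -1.47 log2) were below it.

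The immediate early genes are those that cells transcribe first after a stimulus. Of 31 measured members 6 were lower in both iPS lines and 0 higher, beside 1.09% of all genes lower. The list's median was -0.23 log2 in iPS 178B5 and -0.54 log2 in iPS 492B4. Fosb, a subunit of the factor AP-1, stood at -0.53 in iPS 178B5, -0.29 in iPS 492B4, 3.05 in ES and 0.29 in MEF, which puts it 3.57 and 3.34 log2 below ES. Fos stood at -0.59, -0.38, 2.58 and 0.38 in the same order. For both genes ES alone was high and the other 3 arrays lay within 1 log2 of each other.

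Jun, the partner of Fos in AP-1, was 1.10 and 1.48 log2 below ES. The zinc finger genes Egr1 (-1.34 and -2.11 log2) and Egr2 (-1.57 and -1.71 log2) and the nuclear receptor gene Nr4a2 (-1.28 and -1.64 log2) completed the group. For these 4 genes MEF was near or above ES, from 0.03 log2 below it for Egr1 to 0.81 log2 above it for Nr4a2. The 2 with the largest differences, Fos and Fosb, were thus the ones where MEF was lower than ES by 2.21 and 2.75 log2.

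The promoters of these genes were searched for TGACG, the core of the site bound by factors of the CREB and ATF family. The RefSeq promoter table (GRCm38.p6) was used for 5 of the 6 genes, and 4 of the 5, Fos, Fosb, Nr4a2 and Egr2, held TGACG or its reverse complement CGTCA in the 250 bases before a start. The share was 24.1% over the 15563 measured genes with an entry and 65.2% over the 23 of the whole immediate early list, so members and other genes of the list both hold it often. The motif was picked after the members were known. A stretch of Fos (chr12:85473736-85473853, plus strand), Fosb (chr7:19310071-19310130, minus strand) and Nr4a2 (chr2:57124085-57124228, minus strand) shows the matches in capitals, 5′ to 3′ on the gene's strand.
Fos: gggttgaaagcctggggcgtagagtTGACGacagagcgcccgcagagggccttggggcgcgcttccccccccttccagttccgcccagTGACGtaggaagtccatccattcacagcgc
Fosb: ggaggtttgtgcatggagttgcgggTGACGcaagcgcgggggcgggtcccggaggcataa
Nr4a2: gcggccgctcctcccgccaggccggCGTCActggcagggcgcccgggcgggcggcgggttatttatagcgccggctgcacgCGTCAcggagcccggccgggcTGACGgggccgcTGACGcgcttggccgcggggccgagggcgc
Nr4a2 held 4 matches, Fos 2 and Fosb 1.

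Further genes were high in ES alone. Olig2 and Olig1, neighbouring genes for transcription factors of motor neuron and oligodendrocyte precursors, form such a pair. Olig2 stood at -0.29 in iPS 178B5, -0.16 in iPS 492B4, 3.17 in ES and 0.16 in MEF, and Olig1 was 2.50 and 2.28 log2 below ES. Of 19 measured neural markers Olig2 was the only shared difference, beside 2.05% of all genes, and the list's median was -0.03 and -0.17 log2. Slc27a2, which takes up and activates fatty acids, stood at 0.06, -0.06, 3.02 and -0.41 in the same order. Hal, the first enzyme of histidine breakdown, chosen after its values were seen, was 2.53 and 2.63 log2 below ES with MEF 2.47 log2 below it. Apoa2, the endoderm list's exception, was 2.29 and 2.53 log2 below ES.

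Mid1, an X-linked ubiquitin ligase that binds microtubules, stood at -1.55 in iPS 178B5, -1.07 in iPS 492B4, 2.30 in ES and 1.07 in MEF. Agtr2, a receptor for angiotensin II, stood at -1.38, -1.50, 2.09 and 1.38, and Calml4, a calmodulin-like gene, at -0.62, -0.73, 2.23 and 0.62. Serpina3n, a protease inhibitor, was 3.23 and 3.50 log2 below ES. In these 4 genes ES was the highest array and MEF came next. Rhox9, a homeobox gene of the X-linked Rhox cluster, was 1.28 and 1.37 log2 below ES. It was the only shared difference among 8 measured Rhox genes, beside 2.05% of all genes.

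The other genes among the 15 lowest had MEF above ES. Penk, the enkephalin precursor, stood at -1.82 in iPS 178B5, -2.93 in iPS 492B4, 1.82 in ES and 3.60 in MEF. Prg4, which lubricates joints, stood at -1.73, -1.91, 1.73 and 5.35. Mgp, an inhibitor of matrix calcification, was 4.22 log2 below ES in both lines, with MEF 0.71 log2 above ES. Gpnmb, a membrane glycoprotein, was 2.57 and 2.86 log2 below ES, with MEF 0.43 log2 above it. Over the 170 lower genes outside the lists, MEF was the highest array for 109 and ES for 61. By the rule no iPS line could be highest here. MEF was at least 1 log2 above ES for 89, within 1 log2 of it for 37 and at least 1 log2 below it for 44. The same split over all genes was not counted. The part of fibroblast or feeder RNA on the ES array in these differences was not tested.

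**Figure D4:**
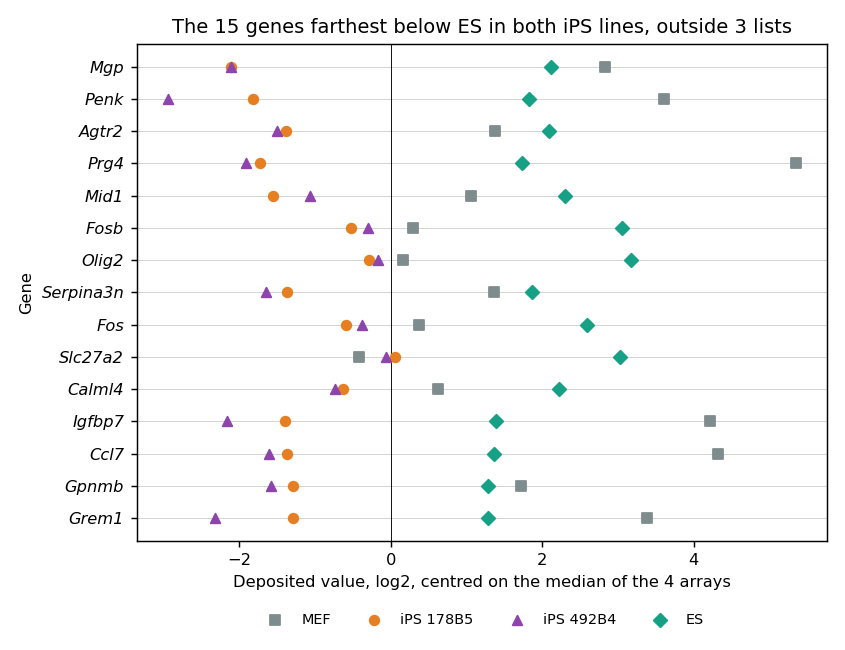
Deposited values (x axis, log2, centred on the median of the 4 arrays) of the 15 genes outside the 3 context lists with the largest shared difference below ES (y axis), a point per array. In Fosb, Fos, Olig2 and Slc27a2 only ES lies right, between 2.58 and 3.17, while in Penk, Prg4, Igfbp7, Ccl7 and Grem1 the MEF value exceeds that of ES.

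Several signalling lists had members on the lower side. Of 33 measured Nodal, activin and TGF-beta genes 6 were lower, beside 1.09% of all genes, and 0 higher. The activin subunit genes Inhba (-2.41 and -2.84 log2) and Inhbb (-1.27 and -1.56 log2) were below ES, as were Fstl1 (-1.38 and -1.47 log2) and the TGF-beta storage gene Ltbp1 (-1.15 and -1.28 log2). Tgfb3 and Ltbp2 are shared with the fibroblast lists. The members of this list had MEF above ES in each case, from 0.53 log2 for Inhbb to 3.70 log2 for Tgfb3.

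Of 34 BMP genes 2 were higher, both ligands, beside 0.958% of all genes, and 1 was lower, an antagonist, beside 1.09%. The ligand gene Bmp7 stood at 0.81 in iPS 178B5, 1.41 in iPS 492B4, -0.81 in ES and -1.39 in MEF. Bmp6 was 1.29 and 1.25 log2 above ES. The BMP antagonist gene Grem1 stood at -1.28, -2.32, 1.28 and 3.38 on the arrays in the same order as for Bmp7. Ligands and antagonists did not part as groups, since the ligand gene Bmp4 was below ES (-1.93 and -0.75 log2) and the antagonist gene Nog above it (1.04 and 0.83 log2), neither past the minimum in both lines. Of 57 Wnt genes 2 were lower, the ligand gene Wnt5a (-2.15 and -2.46 log2) and the inhibitor gene Dkk2 (-2.13 and -2.33 log2), beside 1.09% of all genes. With iPS 492B4 alone 5 Wnt genes were lower, beside 2.2% of all genes, and with iPS 178B5 alone 2 were, beside 1.32%. Fgf2, which encodes basic fibroblast growth factor, was the 1 of 29 FGF pathway genes lower (-1.79 and -1.82 log2), beside 1.09% of all genes.

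Of 17 genes of the insulin-like growth factor axis 3 were lower, beside 1.09% of all genes. Igf2, an imprinted gene for a fetal growth factor, stood at -1.24 in iPS 178B5, -1.35 in iPS 492B4, 1.24 in ES and 2.76 in MEF. The binding protein genes Igfbp7 (-2.79 and -3.56 log2) and Igfbp3 (-1.15 and -1.75 log2) were the others, again with MEF above ES. Of 60 imprinted genes Igf2 and the proteoglycan gene Dcn were lower, and Sgce (1.28 and 1.64 log2) and Nnat (1.51 and 1.30 log2) were higher, beside 1.09% and 0.958% of all genes. Dcn is also on the fibroblast matrix list. Of 43 cytokine genes 4 were lower, again beside 1.09%: the chemokine genes Ccl7 (-2.72 and -2.97 log2) and Ccl2 (-1.09 and -1.98 log2), Ptgs2, which makes prostaglandins (-1.87 and -2.92 log2), and Tslp (-1.13 and -1.15 log2). Cxcl16 was higher (1.20 and 1.09 log2).

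Of 22 retinoic acid genes 3 were higher, beside 0.958% of all genes, and 0 lower. The list as a whole was not raised. Its median was -0.09 log2 in iPS 178B5 and -0.20 log2 in iPS 492B4, against -0.04 and -0.07 log2 over all genes. By any amount, 12 of its genes were below ES in both lines and 7 above. Stra6, a receptor for retinol uptake (2.32 and 1.61 log2 above ES), and Rbp4, the retinol carrier of serum (-0.05 in iPS 178B5, 0.05 in iPS 492B4 and -1.55 in ES), are also on the endoderm list. Meis1, a partner of Hox proteins, was 1.26 and 1.29 log2 above ES.

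The lists that follow held at most 2 shared differences each way, beside 0.958% of all genes higher and 1.09% lower. Xaf1 was the only one of 56 interferon genes (1.92 and 1.39 log2 above ES), and H2-Q4, an MHC class I gene with close paralogues, the only one of 29 antigen presentation genes (1.35 and 1.34 log2). Gadd45g was the only one of 33 p53 list genes (-0.81 in iPS 178B5, -0.69 in iPS 492B4 and 0.69 in ES). Hoxc8 (-1.20 and -1.43 log2) and Hoxd11 (-1.13 and -1.16 log2) were 2 of 36 Hox genes, or 5.56% lower. Of these 36 genes 31 were below ES in both lines by any amount, beside 9513 of all 19938 genes. Of the macrophage markers, 1 of 19 was higher (Cd68) and 1 lower (Lyz2), and of the endothelial, erythroid, keratinocyte and skeletal muscle markers 0 were past the minimum in both lines. The cholesterol, amino acid stress, Notch, DNA methylation, 2-cell-like and primed lists also had 0, as had the reference genes. Given the shares over all genes, 0 in lists this short tells little.

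Small RNA genes were found only on the lower side. Of 53 measured small nucleolar RNA genes, which guide chemical modification of ribosomal and other RNA, 6 were lower (11.3%, beside 1.09% of all genes), and 0 were higher. Their median was -0.64 log2 in iPS 178B5 and -0.30 log2 in iPS 492B4. Snord33 stood at 0.04 in iPS 178B5, -0.04 in iPS 492B4, 1.44 in ES and -0.97 in MEF. Snord35a and Snord35b, its neighbours on chromosome 7, were 1.24 and 1.24 and 1.39 and 1.22 log2 below ES, and the others were Snord14e, Snora75 and Snora41. In all of these ES was the highest array. This class was singled out after its values were seen, and the part of RNA recovery by size was not tested.

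Of 297 microRNA genes 3 were lower and 0 higher, 1.01% beside the 1.09% of all genes, so the share was near the background. The mature sequences of their 3p arms are shown to tell them from relatives with the same seed, bases 2 to 8, which pairs with target RNAs. They are from RefSeq (GRCm38.p6), with the seed in capitals.
mmu-miR-19b-3p: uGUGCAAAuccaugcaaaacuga
mmu-miR-363-3p: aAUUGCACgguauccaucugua
mmu-miR-27a-3p: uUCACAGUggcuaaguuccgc
The seeds differ, so the 3 genes fall into 3 seed families. Mir19b-1 was 1.32 and 1.39 log2 below ES, and its cluster neighbours Mir17 (-0.80 and -0.92 log2) and Mir20a (-0.82 and -1.02 log2) were below ES in both lines without reaching the minimum in both. Mir19a of the same cluster was closer to ES in iPS 178B5 (-0.13 log2) than in iPS 492B4 (-0.85 log2). Mir363 was 1.20 and 2.02 log2 below ES, while its cluster neighbours lay closer to it: Mir92-2 (-0.22 and -0.59 log2), Mir106a (-0.23 and -0.39 log2) and Mir20b (-0.30 and -0.50 log2). Mir27a was 1.21 and 1.19 log2 below ES. The probe sets are named by gene, so these values do not tell a precursor from a mature form.

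Position was not used by the rule. Chromosome 11 carried 32 of the 191 higher genes, 2.05% of its 1563 measured genes against 0.958% of all genes, and 30 of these 32 lay outside the context lists. On the 17 other chromosomes apart from 1, 8 and Y the share of higher genes ran from 0.346% to 1.76%, the last on X. The shares on chromosomes 1 and 8, 0.891% and 0.524%, lay inside this range. Lower genes made up 0.704% of chromosome 11, inside the range of the same 17 (0.444% to 1.85%). The median over all genes of chromosome 11 exceeded ES by 0.13 log2 in line 178B5 and by 0.12 log2 in line 492B4. On those 17 chromosomes these medians ran from -0.08 to -0.01 log2 and from -0.09 to -0.05 log2. Leaving out chromosomes 1 (0.04 and -0.10 log2) and 8 (-0.13 log2 in both lines) narrows these ranges, since their medians lay outside them. With its genes divided in order along the chromosome into 4 runs of like size, each run of chromosome 11 had medians above 0, from 0.09 to 0.15 log2 in iPS 178B5 and from 0.08 to 0.22 log2 in iPS 492B4.

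The same chromosome was also set against MEF, which does not use the ES array. There the median of chromosome 11 was 0.02 log2 in iPS 178B5 and 0.01 log2 in iPS 492B4, against -0.15 to -0.09 log2 and -0.22 to -0.10 log2 on the 17 others. MEF minus ES was 0.05 log2 on chromosome 11, inside the range of the others (0.03 to 0.13 log2). Chromosome 8 showed the opposite sign, with medians of -0.13 log2 in both iPS lines against ES, and 28.3% and 31.9% of its 955 genes above ES. Against MEF the iPS medians of chromosome 8 (-0.12 and -0.14 log2) lay inside the range of the others, and MEF minus ES was 0.01 log2, below that range. On chromosome 1 the 2 lines parted, with medians of 0.04 and -0.10 log2 against ES. Copy number was not measured and its part in these values was not tested.

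**Figure D5:**
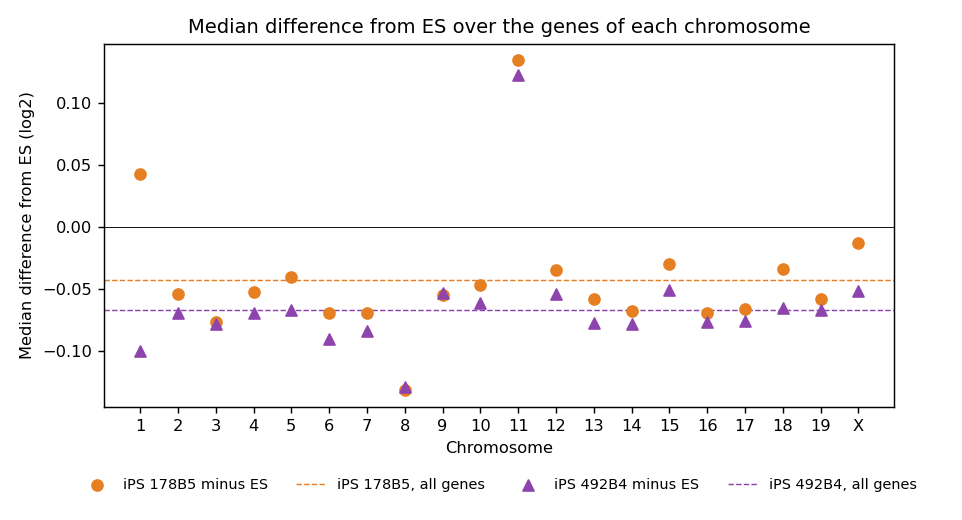
Median difference from ES over the measured genes of each chromosome (x axis; y axis in log2), a point per iPS line; dashed lines mark the medians over all genes, -0.04 for iPS 178B5 and -0.07 for iPS 492B4. Among chromosomes 1 to 19 and X, chromosome 11 lies above the others in both lines (0.13 and 0.12) and chromosome 8 below them (-0.13 in both); on chromosome 1 only iPS 178B5 is above 0.

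Some shared differences lay next to each other. In 15 places 2 members were direct neighbours among measured genes, and in 14 of these both had the same direction. They included Col4a1 and Col4a2, Clu and Gulo, Slc13a5 and Xaf1, and Ypel2 and Gdpd1 on the higher side, and Olig2 and Olig1, Ccl2 and Ccl7, and Tmem176b and Tmem176a on the lower side. Rasgrp1 and Thbs1 went opposite ways. The pairs Slc13a5 and Xaf1, and Ypel2 and Gdpd1, lie on chromosome 11, whose median was above ES in both lines. How many such places 407 placed members among 19854 placed genes give without any grouping was not counted. The 15 places therefore have no background beside them. Clu, a secreted chaperone, was 2.58 and 1.91 log2 above ES, and Gulo, an enzyme of vitamin C synthesis, was 1.24 and 1.71 log2 above it.

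Close to the minimum, Spns2, Anxa3 and Abhd5 were the last higher genes inside it, with the line nearer to ES at 1.00, 1.00 and 1.01 log2. Ulk4, Pwwp3b and Lpin1 lay just outside before rounding, with iPS 178B5 at 1.00, 1.25 and 1.00 log2 and iPS 492B4 at 1.24, 1.00 and 1.75 log2. On the lower side Slc25a15, Tac1 and Gria3 were just inside, and Hoxd13, Dpysl3 and Ccn4 were just outside. Hoxd13 had both lines close to the minimum, with -0.50 in each iPS line and 0.50 in ES.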

How the data were processed

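Total RNA of 4 mouse samples was hybridised to Affymetrix 1-colour arrays, with a single array per sample. The authors deposited 1 table of log2-scale values; per the submitters' processing notes they used GCRMA. Its version was not given in the sources used. No log base is stated, and 2 was taken. The median of every probe set over the 4 arrays was 0 within 1e-06, so no level, background or depth could be read, and the number of arrays limits the precision. Array dates and batches were not analysed here.

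Of 28853 probe sets 21789 had 1 gene symbol in the platform annotation, 1621 had several and 5443 none; those with 1 were averaged to 19938 genes, 999 of them from several probe sets. Gene identifiers of 21698 probe sets matched the RefSeq table of GRCm38.p6, which gave chromosomes and gene order. Differences are iPS minus ES for each line. limma 3.58.1 (R 4.3.3) was fitted over MEF, iPS and ES with Benjamini-Hochberg adjustment over all genes, after a test on simulated data; python 3.11.15 did the rest. Members and the 41 gene lists were chosen with earlier results of these data known. Named genes were the 15 highest and 15 lowest members outside the fibroblast, mesenchymal and endoderm lists by the line nearer to ES, up to 6 members per other list and 4 per context list, the 3 genes on each side of the minimum, label checks, and neighbours or paralogues. Others are said to be chosen after their values were seen. Alternatives were a minimum of 1.5 or 2 log2, other scalings, other probe set rules, other limma settings and leaving out an iPS line.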

Additional observations from a re-analysis of the deposited data

How the results depend on the processing

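Setting array medians equal gave 211 higher and 205 lower shared differences, and centring on reference genes 166 and 246, against 191 and 217. None of the members changed direction under these scalings, but 12 lower ones fell under the minimum with equal medians and 25 higher ones with reference centring. The latter scaling moved the iPS 492B4 difference from ES by -0.09 log2. A minimum of 1.5 log2 left 64 higher and 96 lower genes, and 2 log2 left 24 and 49. Requiring only 1 line gave 285 to 505 higher and 263 to 439 lower genes. In limma's test 0 genes were called as deposited, with a variance trend, with robust moderation, with 1 probe set per gene, or without MEF (unadjusted p under 0.05 for 2912 to 3079), against 44 with equal array medians and 276 with reference centring. Without an iPS line limma has no residual degrees of freedom. No paired analysis was possible because ES has a single array and the labels pair no lines. The members named outside the context lists stayed past 1 log2 under both scalings, apart from the 6 named as just inside the minimum.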
